A study of Mus musculus with 10 samples.

Results

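The 10 genes described here code for proteins of the zymogen granule and of the secretory path of the pancreatic acinar cell: Gp2, Zg16, Sycn, Cuzd1, Tmed6, Dnase1, Serpini2, Erp27, Pdia2 and Spink1 (older mouse symbol Spink3). They form a named list and were read from the deposited array table as the brightest transcript cluster (the set of probes along a transcript that is summarised into 1 value) assigned to that gene alone, and all 10 were found, among 19938 genes measured in this way. Each of the 10 had 1 cluster, so no choice between clusters was needed. The study compared total RNA of mouse pancreas on Affymetrix Mouse Gene 1.0 ST arrays in 5 DKO and 5 control samples. DKO mice carried the genotype PDX1Cre, Mst1-/-, Mst2L/L: a null allele of Mst1 (gene Stk4), present in every cell, and a floxed allele of Mst2 (gene Stk3) deleted where Cre acts under the promoter of Pdx1, a gene of pancreatic progenitors. Cells of the DKO pancreas that do not descend from Cre-expressing cells would therefore lack Mst1 alone. The control mice are labelled only as control, all mice were of mixed strain background, and the labels give no age or sex. Nothing in the labels says that each sample is a separate animal, and p-values cover the spread between samples only.

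Acinar cells make the digestive enzymes of the pancreas, fold them in a very large endoplasmic reticulum (ER), pass them through the Golgi and store them as inactive precursors in zymogen granules, which release their contents by exocytosis when the cell is stimulated. Alongside the enzymes, the granules carry membrane and matrix proteins that pack the cargo, and inhibitors that restrain trypsin activated too early. MST1 and MST2 sit at the top of the Hippo kinase cascade, whose activity keeps the coactivators YAP and TAZ out of the nucleus. The acinar programme itself is driven by factors such as the complex PTF1, whose acinar form contains RBPJL, and by NR5A2.

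Values are log2 intensities, so a difference of 1 is a doubling, and the level of a gene can be compared between arrays but not with that of another gene. Levels of sex-linked genes on arrays where they were low serve here only as a rough guide to background. The medians of the 10 arrays over all clusters ran from 7.12 to 7.15, Pearson's r across genes was 0.976 to 0.995 for pairs of arrays, and the number of arrays limits the precision. DKO replicate 1 stood apart: the mean of 11 hepatocyte markers (albumin and other plasma protein genes) was 11.7 in it, against 7.07 to 8.12 on the other 9 arrays, so results are also given without it. Xist, expressed from an inactive X chromosome, stood high in DKO replicates 1 and 4 and in control replicates 2, 3 and 4, and Y-linked genes stood high on the remaining arrays, so each group held both patterns. The tissue label fits its markers, with Cpa1, a carboxypeptidase precursor of acinar cells, at 13.56 ± 0.03 in DKO and 13.60 ± 0.01 in control (SD, n = 5 each), near the array maxima of 13.77 to 13.94. The deletion could not be checked on the arrays, since Stk4 measured 5.13 ± 0.06 in DKO and 5.15 ± 0.09 in control (SD, n = 5 each). That is a level within the range that Xist and the Y-linked genes had on arrays where they were low, 3.99 to 5.75, and Stk3 was not analysed here.

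The regulatory sequence in front of 7 of the 10 genes was available from RefSeq (assembly GRCm38.p6), and 4 are shown as examples. These are Tmed6, which passed the test, Serpini2 and Pdia2, for which all 5 DKO arrays lay below the control mean, and Sycn, whose groups lay close together. Dnase1 also had all 5 DKO arrays below the control mean. Its level could not be told from background, and its windows, without a match to any motif used here, are not shown. Each sequence shown is the 250 bases before the annotated transcript start, written 5′ to 3′ on the strand of the gene. The windows are chr8:107065645-107065894 (minus strand), chr3:75270079-75270328 (minus strand), chr17:26199088-26199337 (minus strand) and chr7:28540635-28540884 (plus strand). Capitals mark matches, on either strand, to the motifs named in the next paragraph.
Tmed6: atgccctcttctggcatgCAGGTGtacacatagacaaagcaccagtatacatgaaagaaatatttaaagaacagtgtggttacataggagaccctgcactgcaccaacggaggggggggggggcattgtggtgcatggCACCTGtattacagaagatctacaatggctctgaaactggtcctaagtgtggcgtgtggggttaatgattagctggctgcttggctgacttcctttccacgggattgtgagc
Serpini2: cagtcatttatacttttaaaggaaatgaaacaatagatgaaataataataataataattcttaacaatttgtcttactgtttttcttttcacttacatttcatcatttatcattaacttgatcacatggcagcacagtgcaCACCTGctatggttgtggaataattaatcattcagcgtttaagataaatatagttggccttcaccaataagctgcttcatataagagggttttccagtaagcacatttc
Pdia2: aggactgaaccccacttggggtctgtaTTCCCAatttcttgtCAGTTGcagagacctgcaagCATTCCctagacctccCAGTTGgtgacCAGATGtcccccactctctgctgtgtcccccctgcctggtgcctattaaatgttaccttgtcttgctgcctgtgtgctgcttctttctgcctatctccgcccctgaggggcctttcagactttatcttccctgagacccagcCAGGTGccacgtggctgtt
Sycn: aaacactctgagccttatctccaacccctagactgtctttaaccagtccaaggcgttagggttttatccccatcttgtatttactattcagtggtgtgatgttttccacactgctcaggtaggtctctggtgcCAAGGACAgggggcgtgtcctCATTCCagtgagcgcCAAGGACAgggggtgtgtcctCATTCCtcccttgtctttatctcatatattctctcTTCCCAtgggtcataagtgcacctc

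The motifs were the E-box CANCTG and the TC-box TGGGAA, the pair of elements that PTF1 recognises, the TEAD motif GGAATG, through which YAP and TAZ reach DNA, and the NR5A2 motif CAAGGNCA. They were chosen after the sequences had been seen. The window of Tmed6 held 2 E-boxes, at 232 and 112 bases before the start, and that of Serpini2 held 1, at 109 bases. Pdia2 had 4 E-boxes, 1 TC-box and 1 TEAD motif, and Sycn had no E-box, 1 TC-box, 2 TEAD motifs and 2 NR5A2 motifs. Of the 7 genes with a window, 5 held an E-box, 3 a TC-box, 2 a TEAD motif and 2 an NR5A2 motif. Over all 32851 windows of this length, 44.8% held the E-box, 21.6% the TC-box, 12.6% the TEAD motif and 5.53% the NR5A2 motif. No matches overlapped in the 7 genes. A match describes letters in this window and is not a measured binding site. Zg16, Erp27 and Spink1 are named here without a sequence.

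The comparison asked whether the transcripts of the secretory granule differ between DKO and control pancreas. Of the 10 genes, 8 had a lower mean in DKO than in control and 2, Cuzd1 and Spink1, a higher one, and the differences were small. The 8 include Dnase1, whose level could not be told from background, and so do the medians of the 10 given below. Tmed6, a protein of the early secretory pathway, fell and was the only one past an adjusted p of 0.05 over all genes (limma). None rose. Over all 19938 genes 0.366% passed as lower, 2.08% as higher and 2.44% in either direction. At an unadjusted p of 0.05, 4 of the 10 were lower (Tmed6, Zg16, Pdia2 and Serpini2), against 5.66% of all genes in that direction and 14.8% in either. The median log2 change of the 10 was -0.20, ranging from -0.42 for Serpini2 to 0.06 for Cuzd1, against a median of -0.006 over all genes, of which 52.4% had a lower mean in DKO. Without DKO replicate 1 the median of the 10 was -0.13 and the same number, 8, had a lower mean. Since these are whole-tissue samples, fewer acinar cells and less RNA per cell cannot be told apart.

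**Figure D1:**
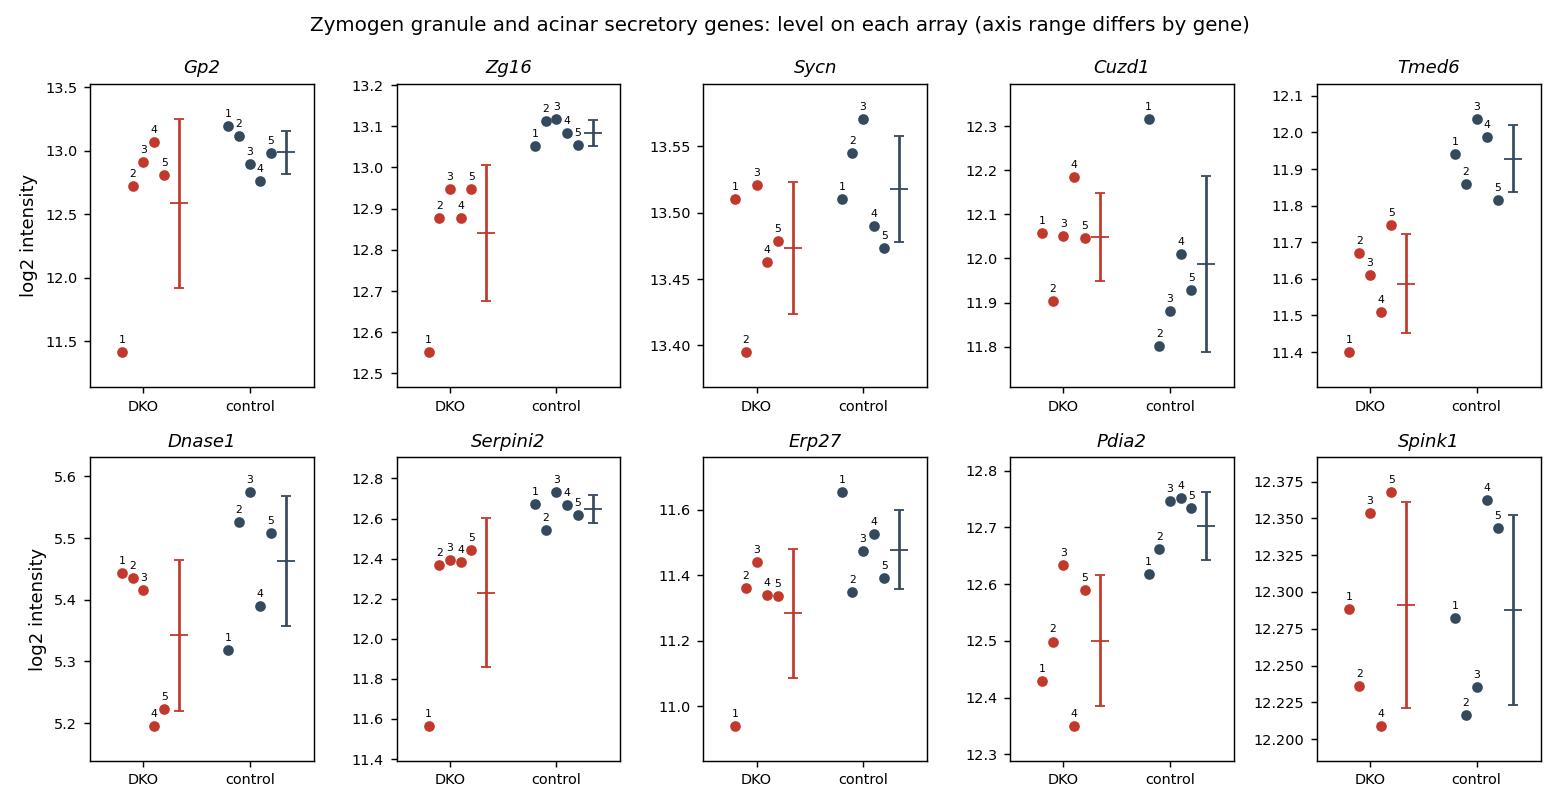
Level of each of the 10 genes on every array, as log2 intensity, with DKO at the left (red) and control at the right (dark blue) of each panel. Small numbers are replicate numbers, the bar beside the points is the mean ± SD (n = 5), and each panel has its own axis range. The DKO and control points do not overlap for Tmed6, Zg16 and Serpini2, and DKO replicate 1 is the lowest point for Gp2, Zg16, Tmed6, Serpini2 and Erp27.

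Tmed6 belongs to the p24 family, small membrane proteins that help load cargo into the vesicles that run between ER and Golgi. It measured 11.40, 11.67, 11.61, 11.51 and 11.75 in DKO replicates 1 to 5, against 11.94, 11.86, 12.04, 11.99 and 11.82 in control replicates 1 to 5. The groups did not overlap, and DKO replicates 1 and 4 were the lowest. The mean was 11.59 ± 0.14 in DKO and 11.93 ± 0.09 in control (SD, n = 5 each), a log2 change of -0.34 ± 0.07 (SE), or 0.789-fold (limma adjusted p = 0.0359). Within the arrays with high Xist the difference was -0.51 (2 DKO against 3 control arrays), and within those with low Xist it was -0.20 (3 against 2). The 2 DKO arrays with high Xist were these same replicates 1 and 4, and a dependence on sex was not tested. The call ended without any 1 of 7 of the 10 arrays, which were DKO replicates 1, 3 and 4 and control replicates 1 to 4, and the adjusted p was highest, at 0.0960, without control replicate 3. Over all 10 fits without 1 array the change stayed between -0.38 and -0.29.

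Zg16 is a lectin-like protein of the granule matrix that lies under the granule membrane. Its levels were 12.55, 12.88, 12.95, 12.88 and 12.95 in DKO replicates 1 to 5, against 13.05, 13.11, 13.12, 13.08 and 13.05 in control replicates 1 to 5. Every DKO array lay below every control array, and the control arrays lay within 0.07 of each other. The log2 change was -0.24 ± 0.07 (SE) and did not pass over all genes (adjusted p = 0.136). DKO replicate 1 lay 0.32 below the next DKO array. Without it the change was -0.17 ± 0.05 (SE, adjusted p = 0.113).

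The remaining granule membrane genes did not pass. Gp2, the most abundant glycoprotein of the granule membrane, to which it is held by a lipid anchor, measured 11.41, 12.72, 12.91, 13.07 and 12.81 in DKO replicates 1 to 5, against 13.19, 13.11, 12.90, 12.77 and 12.98 in control replicates 1 to 5. The DKO arrays other than replicate 1 overlapped the control range. The log2 change of Gp2 was -0.40 ± 0.27 (SE, adjusted p = 0.513), and without DKO replicate 1 it was -0.11 ± 0.10 (adjusted p = 0.575). The mean difference of Gp2 came mostly from that array.

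Sycn codes for syncollin, a granule protein needed for efficient exocytosis in mice, and showed little difference. It measured 13.51, 13.40, 13.52, 13.46 and 13.48 in DKO replicates 1 to 5, against 13.51, 13.54, 13.57, 13.49 and 13.47 in control replicates 1 to 5. The log2 change was -0.04 with a 95% confidence interval of -0.14 to 0.05 (adjusted p = 0.666). The level lay close to the array maxima, 13.77 to 13.94, and whether differences are compressed there was not tested. Cuzd1, a granule membrane protein with CUB and zona pellucida-like domains, was the member with the highest change, 0.06 (95% interval -0.14 to 0.27, adjusted p = 0.780). Its DKO levels, 11.90 to 12.19, lay within the control range of 11.80 to 12.32, and control replicate 1 was the highest array. Without control replicate 1 the change of Cuzd1 was 0.14 (adjusted p = 0.333).

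**Figure D2:**
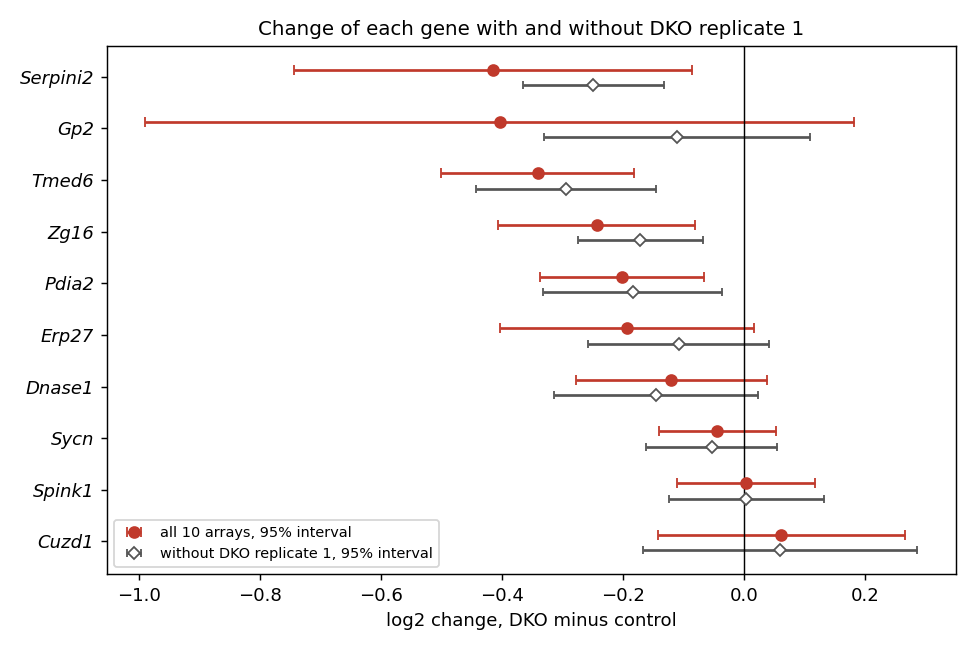
Log2 change of each gene, DKO minus control, with its 95% confidence interval from limma, over all 10 arrays (red circles) and without DKO replicate 1 (open diamonds). The intervals of Serpini2, Tmed6, Zg16 and Pdia2 lie below 0 in both fits, and Gp2 lies at -0.40 over all arrays and at -0.11 without DKO replicate 1. The interval covers 1 gene at a time and is not adjusted over genes.

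Pdia2 and Erp27 act in the ER. Pdia2 is a protein disulfide isomerase found mainly in pancreas, which forms and rearranges disulfide bonds in folding enzymes. It measured 12.43, 12.50, 12.63, 12.35 and 12.59 in DKO replicates 1 to 5, against 12.62, 12.66, 12.75, 12.75 and 12.73 in control replicates 1 to 5. Only DKO replicate 3 reached above the lowest control array, replicate 1. The log2 change was -0.20 ± 0.06 (SE) and did not pass (adjusted p = 0.140). It was nearly the same without DKO replicate 1, at -0.18 ± 0.07 (adjusted p = 0.227).

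Erp27 is a relative of the disulfide isomerases that lacks their catalytic cysteines and binds unfolded protein. Its levels were 10.94, 11.36, 11.44, 11.34 and 11.34 in DKO replicates 1 to 5, against 11.65, 11.35, 11.47, 11.53 and 11.39 in control replicates 1 to 5. All 5 DKO arrays lay below the control mean, but the groups overlapped. The log2 change was -0.19 ± 0.10 (SE, adjusted p = 0.377), and -0.11 ± 0.07 without DKO replicate 1 (adjusted p = 0.435).

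Serpini2 and Spink1 are secreted inhibitors of serine proteases. Serpini2, also called pancpin, is a serpin whose loss in mice leads to loss of acinar cells. It measured 11.57, 12.37, 12.39, 12.38 and 12.44 in DKO replicates 1 to 5, against 12.67, 12.54, 12.73, 12.67 and 12.62 in control replicates 1 to 5. The groups did not overlap, and DKO replicate 1 lay 0.80 below the next DKO array. The log2 change was -0.42 ± 0.15 (SE, adjusted p = 0.219). Without DKO replicate 1 the change was smaller, -0.25 ± 0.05, and passed the test (adjusted p = 0.0467), the only 1 of 21 alternative fits in which Serpini2 did. The other 4 DKO arrays had an SD of 0.03. In that fit 0.201% of all genes passed as lower and 1.58% in either direction, and Tmed6 did not pass (-0.29, adjusted p = 0.0650).

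Spink1, the trypsin inhibitor packed with the zymogens, showed the smallest difference of the 10. It measured 12.29, 12.24, 12.35, 12.21 and 12.37 in DKO replicates 1 to 5, against 12.28, 12.22, 12.24, 12.36 and 12.34 in control replicates 1 to 5. The groups covered nearly the same range, and the log2 change was 0.003 with a 95% interval of -0.11 to 0.12 (adjusted p = 0.984). Dnase1, a secreted endonuclease, could not be told from background: its levels of 5.20 to 5.44 in DKO and 5.32 to 5.57 in control lay within the range of Xist and Y-linked genes on arrays where they were low. Its log2 change was -0.12 (adjusted p = 0.469).

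In 3 of the 10 genes (Tmed6, Zg16 and Serpini2) all DKO arrays lay below all control arrays, against 1.28% of all genes in that direction and 4.8% in either. Of 21 digestive enzyme genes measured, Cela3a, Pnliprp2, Rnase1, Cela3b and Cpa1 also had all DKO arrays below all control arrays, and the other enzymes overlapped. Leaving out DKO replicate 1 cannot make Tmed6, Zg16 or Serpini2 overlap, and none of the other members joined these 3 without it. Within the groups the genes did not vary as 1 block. DKO replicate 1 was the lowest of the 10 arrays for 5 genes (Gp2, Serpini2, Erp27, Zg16 and Tmed6) and was above the gene mean for Cuzd1, Dnase1 and Sycn. DKO replicate 4 was the lowest for Pdia2, Dnase1 and Spink1. Control replicate 3 was the highest array for 5 of the 10. The part of hepatocyte RNA in the low values of DKO replicate 1 was not tested.

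**Figure D3:**
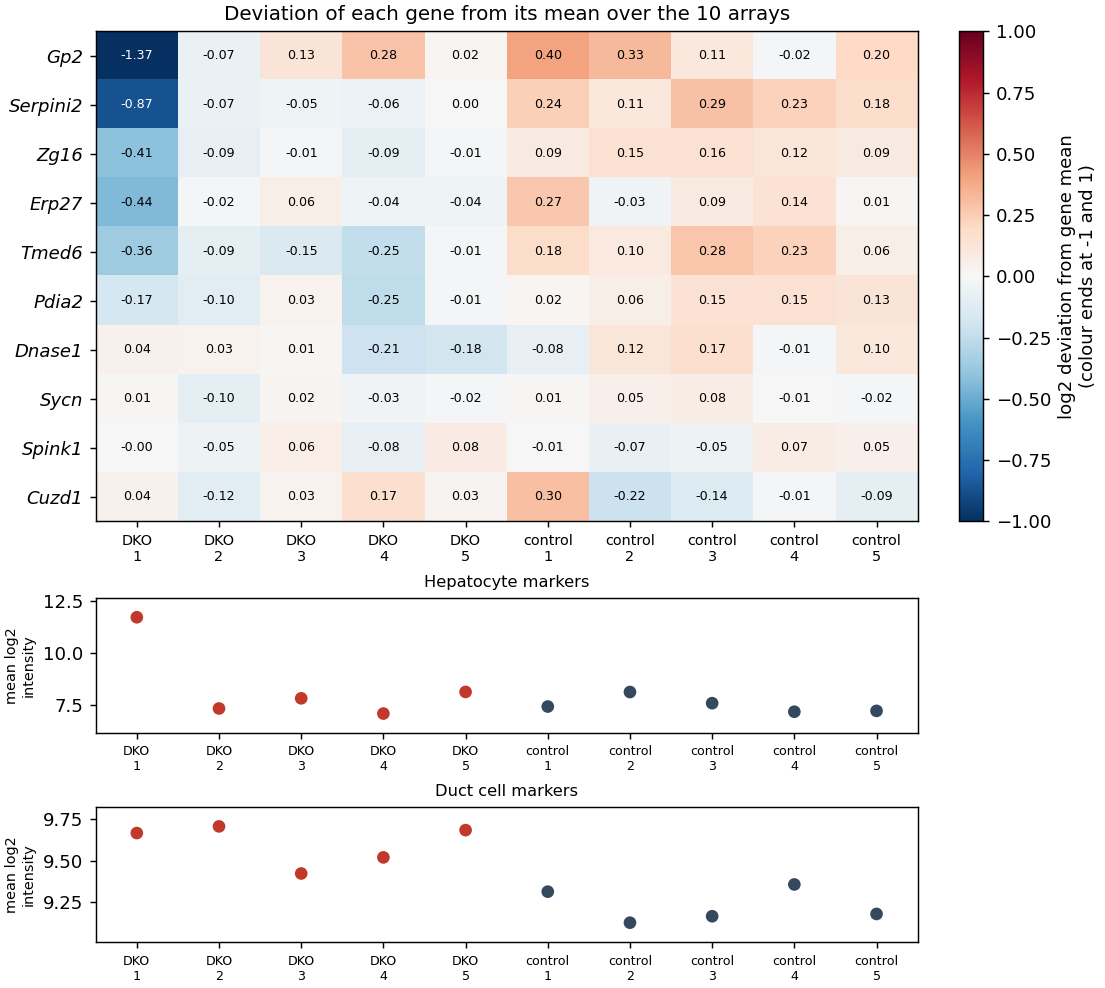
Upper panel, log2 deviation of each gene from its own mean over the 10 arrays, with DKO columns at the left and control columns at the right and the value printed in each cell. Lower panels, mean log2 intensity of 11 hepatocyte markers and 8 duct cell markers on the same arrays (DKO red, control dark blue). DKO replicate 1 holds the darkest cells (Gp2 -1.37, Serpini2 -0.87) and the only high hepatocyte value, 11.7, while the mean log2 level of the 8 duct markers is higher in all 5 DKO arrays than in every control array, although 3 of the 8 had a lower mean in DKO.

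As a description, deviations from the group means over the 10 arrays were correlated between genes. Among the 36 pairs of the 9 genes other than Dnase1, Pearson's r ranged from -0.40 for Cuzd1 with Pdia2 to 0.95 for Zg16 with Serpini2, with a median of 0.15. The high values among Gp2, Zg16 and Serpini2 rested on DKO replicate 1: without it, r was 0.20 for Zg16 with Serpini2 and -0.34 for Gp2 with Serpini2. Tmed6 with Serpini2 stayed at 0.73, against 0.74 over all 10 arrays.

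Over all named genes, the closest patterns to Tmed6 by the same measure were those of Nat9 (r = 0.92), Vps41 (0.92) and Zbtb1 (0.90). Zg16 was closest to Pnliprp2, a pancreatic lipase-related enzyme (0.98, and 0.86 without DKO replicate 1), then to Pts and Lars2. Serpini2 was closest to Rnase1, the pancreatic ribonuclease (0.99, and 0.72 without DKO replicate 1), then to Ndufa13 and Ppm1h. Gp2 was closest to Rfx6, Rnase1 and Arpc1a, and of these only Rfx6 kept a high r without DKO replicate 1 (0.94, against 0.32 and 0.46). Sycn was closest to Pla2g1b, the secreted pancreatic phospholipase (0.96), and to Abca7 and Fam104a. For the other 5 genes the closest were Stc2, Phf10 and Mkrn1 (Cuzd1), Tepp, Optc and Slc5a10 (Dnase1), Tc2n, Sec63 and Zfp787 (Erp27), Chmp3, Nt5dc2 and Rab26 (Pdia2), and Fam53b, Aak1 and Rer1 (Spink1). These are the highest values among all genes over only 10 arrays, and no test goes with them.

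Other genes of the same route were read from lists. Of 23 measured genes of the granule membrane and exocytosis machinery, 4 were lower and 4 higher at an unadjusted limma p of 0.05. After adjustment 1 fell and none rose, and the median change of the list was 0.00. The 1 was Sytl1, a synaptotagmin-like protein that binds the GTPase Rab27 on granules, at 7.91 ± 0.07 in DKO and 8.18 ± 0.08 in control (SD, n = 5 each), which is a log2 change of -0.26 ± 0.06 (SE) with an adjusted p of 0.0359. Leaving out any 1 of 8 arrays ended its call, with an adjusted p of up to 0.0996 (control replicate 2 left out). Of 30 genes of ER folding and disulfide formation, 7 were lower and 1 higher at an unadjusted limma p of 0.05. After adjustment 1 fell, Txndc11, a thioredoxin-domain protein of the ER (-0.28 ± 0.06 SE, adjusted p = 0.0452), and none rose. The median of the list was -0.05. The call of Txndc11 ended without any 1 of 9 arrays, with an adjusted p of up to 0.120 (control replicate 3 left out).

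Among 31 genes of the p24 family and of early secretory carriers none passed by limma in either direction (3 lower and 2 higher at an unadjusted p of 0.05), and the median was -0.03. The smallest p-values were those of Cope, a coat subunit (-0.15, adjusted p = 0.174), and of Tmed3, another p24 protein (-0.19, adjusted p = 0.300). None of 21 digestive enzyme genes passed by limma either (8 lower and 0 higher at an unadjusted p of 0.05), although 20 had a lower mean in DKO, with a median of -0.08. Of the 21 enzymes, 13 had a mean level over 13, close to the array maxima, where compression of differences was not tested. The enzymes with the smallest p-values were Cela3a, an elastase-family gene (-0.20, adjusted p = 0.0726), and Pnliprp2 (-0.36, adjusted p = 0.104). Probes of Cela3a may not separate it from its close relatives.

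Of 11 acinar transcription factor genes, 1 fell, the PTF1 subunit gene Rbpjl, and none rose, with a median of -0.12. Rbpjl averaged 11.43 ± 0.20 in DKO and 11.88 ± 0.07 in control (SD, n = 5 each), and its log2 change was -0.45 ± 0.09 (SE) with an adjusted p of 0.0225. The Rbpjl call ended without DKO replicate 4, control replicate 3 or control replicate 5 (highest adjusted p 0.0689). Without DKO replicate 1, Rbpjl alone of these lists passed as lower. The list medians then lay between -0.10 for the transcription factors and 0.02 for the exocytosis genes.

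**Figure D4:**
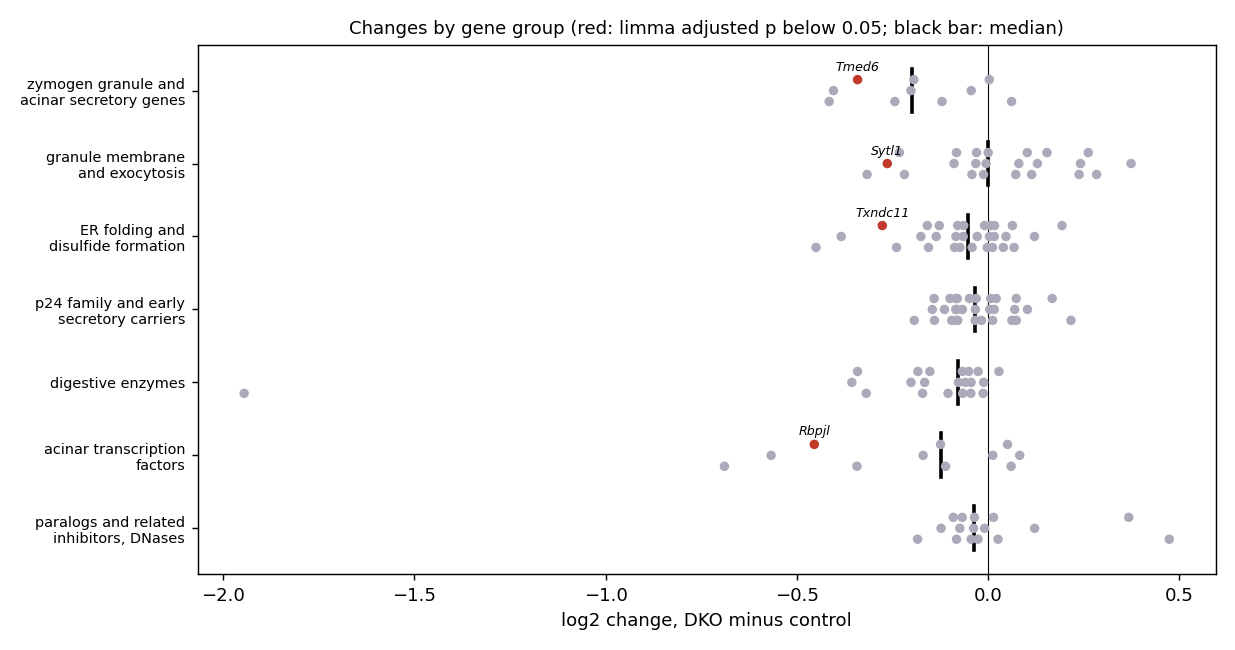
Log2 change, DKO minus control, of each measured gene in the zymogen granule and acinar secretory group (top) and in 6 related lists, 1 point per gene. Red points passed limma at an adjusted p of 0.05 and are named, black bars are medians, and the point at -1.94 is the enzyme Ctrc. The medians are -0.20 for the top group and between -0.12 and 0.00 for the lists, and each list has at most 1 red point. The 6 measured acinar cell markers, which are not drawn as a list of their own, ranged from -0.57 to -0.01. No marker lay near their median of -0.19.

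Markers of other cells were read beside these values. Of 8 measured duct cell markers 3 rose, Krt7 (1.22), Cldn4 (1.37) and Krt19 (0.41), while 3 had a lower mean in DKO, Sox9 (-0.26, adjusted p = 0.149), Onecut1 (-0.10) and Car2 (-0.34). The log2 of the 8 markers' summed level was 12.77 to 13.03 in DKO and 12.51 to 12.89 in control, and the groups overlapped. Of 6 measured acinar markers none passed by limma (2 lower at an unadjusted p of 0.05), and the log2 of their summed level was 15.36 to 15.48 in DKO and 15.45 to 15.56 in control. All 6 acinar markers had a lower mean in DKO: Bhlha15 (-0.57), Ptf1a (-0.34), Cela1 (-0.32), Cel (-0.07), Cpa1 (-0.04) and Ctrb1 (-0.01). No marker lay near their median of -0.19. None of 11 hepatocyte markers passed by limma (0 at an unadjusted p of 0.05), with a log2 summed level of 11.92 to 15.63 in DKO, where the highest is replicate 1, and 12.09 to 13.07 in control. None of the markers of gut (10 genes), salivary gland (7), lymphoid follicle (8), fibroblast (9), macrophage (6), fat (5) or islet cells (9) passed by limma. At an unadjusted p of 0.05, 3 islet markers were lower and 2 macrophage markers higher. All 9 islet markers had a lower mean in DKO, and the log2 of their summed level was 14.59 to 14.72 in DKO and 14.74 to 14.98 in control, without overlap. Of 5 kidney tubule markers 1 rose, the cadherin gene Cdh16 (0.69). The part that these shifts have in the values of the granule genes was not tested.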

How the data were processed

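Pancreas RNA of 10 samples was measured on 1 array each. Per the submitters' processing notes the software was Affymetrix Expression Console, with its version and settings not given in the sources used here. Deposited values are log2 intensities, 1 per transcript cluster, on a common scale by their medians over all clusters, and no further step was applied. Over the tested genes alone the array medians were 7.56 to 7.63 in DKO and 7.55 to 7.59 in control. The table held 35556 clusters, of which 21789 had 1 gene symbol. The brightest cluster per gene left 19938 genes.

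DKO was tested against control with the two-sided moderated test of limma (version 3.58.1, R version 4.3.3), with Benjamini-Hochberg adjustment over all genes and a threshold of 0.05. Adjusted p-values are from limma. Errors are SDs over 5 arrays or standard errors of the fit, and intervals are at 95%. On simulated data for this comparison, over 19938 genes, 86.6% of 67 genes changed by 0.5 were recovered, with 6 false calls. Each gene was simulated independently, without shifts shared by the genes of an array, so these rates need not hold for the real arrays. No change below 0.5 was simulated, so recovery of changes as small as those of the 10 genes was not tested. The genes and lists, and the naming rule (all 10 genes, in each related list the genes past the threshold or the 2 with the smallest p, and the 3 genes closest to each of the 10), were chosen with earlier results of these data known. Cell markers, Nr0b2 and Ctrc were named after their values were seen. Promoters were read from RefSeq tables. The alternatives were other scalings, filters and variance models, array weights, averaged clusters, left-out arrays, and the replicate number, the Xist level or (added after seeing the data) the hepatocyte marker level in the fit. Paralogs of the 10 genes are given under the other observations.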

Additional observations from a re-analysis of the deposited data

Results flagged for a closer look

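DKO replicate 1 lay far below the other 4 DKO arrays for 4 of the 10 genes, with a gap to the nearest array above the 95% limit of Dixon's test for 5 samples (0.71 of the range). They were Gp2 (11.4135, nearest 12.7225), Zg16 (12.5517, nearest 12.8761), Serpini2 (11.5657, nearest 12.3701) and Erp27 (10.941, nearest 11.3377). In all, 20 sets of 5 arrays were examined, at a limit that chance passes in about 1 in 20 independent sets. The sets were the 10 genes on the same arrays, so the 4 flags, all in DKO replicate 1, are not independent of each other. The same array held the high hepatocyte markers (mean 11.7, against 7.07 to 8.12 on the other 9), and Sycn (13.51), Spink1 (12.29) and Cuzd1 (12.06) were not low in it. The cause of the low values was not tested.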

How the results depend on the processing

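Cuzd1 kept its positive and the other genes but Spink1 their negative sign in each alternative that gave a value, and Dnase1 gave none without the dimmest 25% or 50% of genes. Spink1, at 0.003, was negative after subtraction of array medians (-0.037) and with the Xist level in the fit (-0.0083), and lay between -0.016 and 0.024 without single arrays. The call of Tmed6 held in 11 of 21 alternatives (adjusted p 0.0184 to 0.160). It ended, leaving 0 of the 10 genes called, without moderated variance (0.0739), with the replicate block (0.160) and with the hepatocyte marker level in the fit (0.0715, added after seeing the data). Without single arrays 0 to 1 of the 10 genes were called. Over all genes, the 487 calls (414 higher, 73 lower) became 260 to 433 without single arrays (232 to 372 higher, 28 to 64 lower), 298 without moderated variance (264 higher, 34 lower) and 178 with the replicate block (162 higher, 16 lower). There were 271 higher and 103 lower after subtraction of array medians, 46 lower with Xist and 42 lower with the hepatocyte level in the fit. The same numbers in both groups did not pair the samples (correlations of their deviations -0.27 to 0.29). The block also ended the calls of Sytl1 (adjusted p 0.169), Txndc11 (0.205) and Rbpjl (0.0552). Unmoderated variance ended those of Txndc11 (0.0730) and Rbpjl (0.0664), the Xist or hepatocyte level those of Sytl1 (0.0647, 0.0609) and Txndc11 (0.0730, 0.0904), and trended, robust variance that of Sytl1 (0.0522). Of the other listed genes, Snap23 (exocytosis) passed, higher, in 5 alternatives (0.0299 to 0.0472), the enzyme Cela3a, lower, in 2 (0.0444, 0.0462), and Rab27a and Sdf2l1, lower, without 1 array each (0.0499, 0.0374).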

Other observations

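Among 16 relatives of the 10 genes, which included other DNases, Kazal inhibitors, zona pellucida-domain genes and the serpin Serpini1, none passed by limma in either direction (0 lower and 1 higher at an unadjusted p of 0.05), and the median log2 change was -0.04. Serpini1, the neuronal relative of Serpini2, was the gene with the smallest p (0.37 higher in DKO, adjusted p = 0.315). It was followed by Spink4, a Kazal inhibitor of gut goblet cells (-0.18, adjusted p = 0.386).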
